A study of Mus musculus with 20 samples.

Results

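Chemokines are small secreted proteins that direct the movement of leukocytes through receptors on those cells. Here 9 chemokine genes were followed in endothelium sorted from E0771 mouse mammary tumours: Cxcl9, Cxcl10, Cxcl11, Cxcl16, Cx3cl1, Cxcl12, Ccl2, Ccl5 and Cxcl1. They are 9 of the 46983 genes measured, chosen by name as chemokines that endothelium can display to T cells and other leukocytes and found through their Ensembl identifiers. The tumours had been started by injecting E0771 cells into a mammary fat pad, in mice of the C57BL/6J strain, and were taken at 500 mm3. CD31-positive cells (CD31, or Pecam1, is an endothelial surface protein) were then enriched and sorted for bulk RNA sequencing. The 20 libraries came from 6 host backgrounds, all grown with this same tumour line.

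The submitters counted 3 backgrounds as CD4+ T cell competent: WT hosts with 4 libraries, CD8KO hosts with 3 and Tie2Cre hosts with 3. Deficient were CD4KO hosts with 3 libraries, TCRKO hosts with 3 and mice that carry Tie2Cre together with a floxed H2Ab allele (Tie2Cre_H2Abf, 4 libraries). H2-Ab1 encodes the beta chain of the MHC class II molecule I-A, which presents peptides to CD4 T cells. The Tie2 promoter drives Cre in endothelial cells and also in blood cells, so that model is not restricted to endothelium. The labels give no age or sex, and nothing in them says that each library is a separate animal, so p-values measure the spread between these libraries, which may be technical. A background name below stands for the label of its libraries.

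Cxcl9, Cxcl10 and Cxcl11 are ligands of CXCR3, a receptor of activated T cells and NK cells, and are textbook targets of interferon-gamma. Cxcl16 and Cx3cl1 (fractalkine) are made as membrane-anchored chemokines that bind CXCR6 and CX3CR1 and can be shed by ADAM proteases. Cxcl12 is a homeostatic ligand of CXCR4 and is scavenged by ACKR3. Ccl2 attracts monocytes through CCR2, Ccl5 attracts effector T cells, and Cxcl1 attracts neutrophils through CXCR2.

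Cxcl9 (chr5:92321347-92328079), Cxcl10 (chr5:92346638-92348889) and Cxcl11 (chr5:92359544-92365485) lie side by side on the minus strand of mouse chromosome 5 (GRCm38), with 18558 bases between the first pair and 10654 between the second. Cxcl1 stands on the same chromosome (chr5:90891241-90893115, plus strand). The annotation lists Cxcl11 as a polymorphic pseudogene, since C57BL/6 mice carry a frameshift in it. Cxcl16 (chr11:70453983-70459984), Ccl2 (chr11:82035571-82037453) and Ccl5 (chr11:83525778-83530518) are on chromosome 11, Cx3cl1 (chr8:94772009-94782427) on chromosome 8 and Cxcl12 (chr6:117168535-117181367) on chromosome 6.

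RefSeq promoter sequences (GRCm38.p6) were at hand for 5 of the 9 genes. The 250 bases before the start are shown for Cxcl9 and Cxcl10, the abundant CXCR3 ligands on which most values turn, and for Cxcl1, the other window with a match. They were searched on both strands for TTCNNNGAA (the interferon-gamma activated site), the interferon-stimulated response element (GAAA, 2 bases of any kind, GAAA) and an NF-kappaB site (GGG, 2 bases of any kind, TTTCC), which are held by 7.02%, 2.98% and 1.41% of 32851 promoters in the same window. Capitals mark the matches, which are letter matches and not measured sites. Only these forms of the sites were searched, so stretches in small letters may hold other forms of them. The windows are chr5:92328080-92328329 (Cxcl9, minus strand), chr5:92348890-92349139 (Cxcl10, minus strand) and chr5:90890995-90891244 (Cxcl1, plus strand).
Cxcl9: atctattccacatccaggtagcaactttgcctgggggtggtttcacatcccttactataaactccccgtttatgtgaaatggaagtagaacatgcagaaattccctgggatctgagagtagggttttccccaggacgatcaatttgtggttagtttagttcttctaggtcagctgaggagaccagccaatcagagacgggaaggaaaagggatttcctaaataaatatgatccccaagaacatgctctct
Cxcl10: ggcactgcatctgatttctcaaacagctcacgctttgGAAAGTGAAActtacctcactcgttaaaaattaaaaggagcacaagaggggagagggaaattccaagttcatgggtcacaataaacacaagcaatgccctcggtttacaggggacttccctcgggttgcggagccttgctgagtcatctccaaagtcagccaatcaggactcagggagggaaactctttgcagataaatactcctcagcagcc
Cxcl1: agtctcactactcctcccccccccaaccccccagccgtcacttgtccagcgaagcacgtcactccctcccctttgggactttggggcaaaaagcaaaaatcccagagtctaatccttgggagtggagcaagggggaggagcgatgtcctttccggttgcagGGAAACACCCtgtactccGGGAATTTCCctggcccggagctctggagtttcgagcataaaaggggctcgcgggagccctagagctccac
The Cxcl10 window held 1 match to the interferon-stimulated element, 213 to 204 bases before the start. The Cxcl1 window held 2 matches to the NF-kappaB letters, 89 to 80 and 71 to 62 bases before the start, which do not overlap. None of the 3 letter strings was found in the Cxcl9, Cx3cl1 or Cxcl12 windows.

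Total counts ran from 1543847 to 11478902 per library with a median of 7531926.5, and protein-coding genes took 12.8% to 81.0% of them (median 24.2%). The gene CT010467.1 alone took 9.89% (CD8KO_9752) to 82.1% (Tie2Cre_H2Abf_9576). CD8KO_9752 stood apart with the largest protein-coding share and a TMM scaling factor of 3.69. All 12 endothelial markers were counted in every background, with a summed level of 2665 to 8150 CPM (counts scaled to a common effective library size) per library. All 12 macrophage markers were also counted in every background, at 93.9 to 776 CPM in sum. H2-Ab1 was at 0.712 to 6.37 CPM in the 4 Tie2Cre_H2Abf libraries and at 25.3 to 96.2 CPM in the 3 Tie2Cre libraries. Cd8a RNA went against its label: it was at 39.0 to 69.8 CPM in the libraries labelled CD8KO and at no more than 2.94 CPM in any other library. Cd8b1, which encodes the other CD8 chain, had 0 counts in the libraries labelled CD8KO, as in WT and TCRKO. The source of the Cd8a RNA was not tested, so it does not show that these libraries are mislabelled. Cd4 RNA was counted in the libraries labelled CD4KO (4.22 to 15.7 CPM) over much the same range as in WT (0.379 to 15.6 CPM), so it does not check that label. The T cell receptor genes Trac, Trbc1 and Trbc2 were each below 2 CPM in every library, TCRKO or not. In bulk RNA, fewer cells of a type and less RNA per cell cannot be told apart.

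The 9 genes fell into an abundant and a scarce group. On the length-scaled TPM level, Cxcl10 ranked first of the 9 in 18 of 20 libraries and Cxcl9 in the other 2, and Cxcl9 was second in 13. Their median TPM levels were 138 (range 51.1 to 609) and 70.7 (26.5 to 628). Cxcl12 followed with a median of 33.0 TPM (5.97 to 114) and ranked 3 in 11 libraries. Cxcl16 and Cx3cl1 had median TPM levels of 14.2 and 11.2. The scarce genes had median TPM levels of 5.19 (Ccl2), 2.51 (Ccl5), 1.87 (Cxcl11) and 0.27 (Cxcl1), and each of these was listed at 0 in at least 1 library. Of the 9 genes 8 passed the filter on low counts, and Ccl5 did not.

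**Figure D1:**
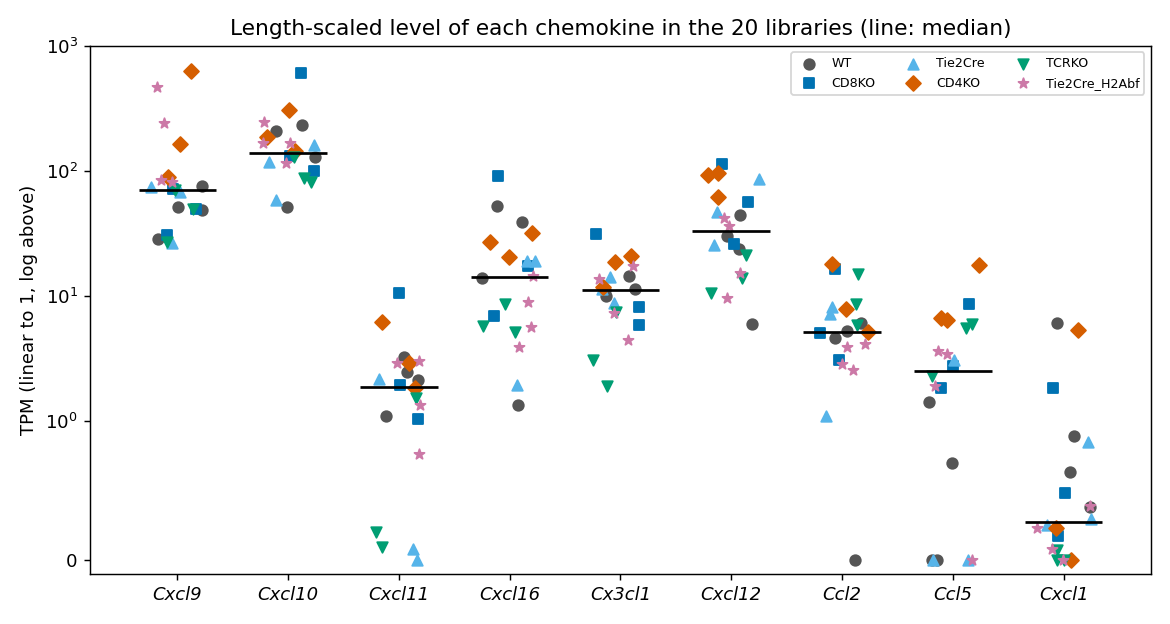
Deposited TPM level of each of the 9 chemokines (x axis) in all 20 libraries (points, shaped by background; linear up to 1 TPM and logarithmic above), with the median over libraries as a line. Cxcl10 has the highest median (138 TPM) and Cxcl1 the lowest (0.27 TPM).

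Among the CXCR3 ligands, Cxcl9 had its highest mean levels in 2 of the CD4-deficient backgrounds and its lowest in TCRKO, the remaining one. In CPM the Cxcl9 level was 490.4, 128, 114 and 411 in the Tie2Cre_H2Abf libraries and 398, 209.9 and 117 in those labelled CD4KO. It was 95.02, 209, 163 and 80.8 in WT and 47.2, 102 and 89.7 in Tie2Cre. It was 40.8, 35.9 and 92.3 in the libraries labelled CD8KO and 59.98, 41.0 and 55.01 in TCRKO. In CPM every Tie2Cre_H2Abf and CD4KO library thus lay above every Tie2Cre, CD8KO and TCRKO library, and WT overlapped all groups but TCRKO. Per Pecam1 count in the same library these groups overlapped, with CD4KO_9770 at 0.0909 and Tie2Cre_H2Abf_9583 at 0.1003. On that scale Tie2Cre_9504 was at 0.102, TCRKO_9767 at 0.1029 and CD8KO_9753 at 0.0913. From the top, the order of means was Tie2Cre_H2Abf (286 ± 193 CPM, SD, n = 4), CD4KO (242 ± 143, n = 3), WT (137 ± 59.9, n = 4), Tie2Cre (79.6 ± 28.7, n = 3), CD8KO (56.3 ± 31.2, n = 3) and TCRKO (52.0 ± 9.85, n = 3), and each neighbouring pair overlapped. On the TPM level the libraries labelled CD4KO came first (293 ± 292) and Tie2Cre_H2Abf second (219 ± 183), and the other 4 means lay together between 48.7 and 56.1, so the place of WT depended on the unit. TPM compares genes within a library and takes no TMM factor (0.523 to 3.69), so its order of backgrounds also carries library scale. Cxcl10, for example, was at 89.5 CPM but 609 TPM in CD8KO_9752, and at 107 CPM but 51.1 TPM in WT_9771. The effective length of Cxcl9 assigned by the authors' tool ran from 805 to 2580 bases between libraries. The parts of scale and length in the TPM order were not tested.

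Across the 6 backgrounds 0 of the 8 tested chemokines passed the edgeR test, while 0.0605% of the 14875 genes did (9 genes). Of the 8, Cxcl9 came nearest, with an adjusted p of 0.102 and place 20 of all genes by p. At an unadjusted p under 0.05 there were 4 (Cxcl9, Cxcl16, Cx3cl1 and Cxcl12), against 9.34% of all genes. DESeq2 called 1 of the 8, Cxcl9 (DESeq2 adjusted p = 0.000678), and 261 genes in all, and edgeR without the library CD4KO_9770 called Cxcl9 as well (adjusted p = 0.0486). With no filter on low counts edgeR also called Cxcl9 (adjusted p = 8.414e-05), among 672 genes.

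In CPM, Cxcl10 had the same background at the top as Cxcl9, with a narrower spread of means. Its level was 191, 140.1, 66.9 and 228 CPM in Tie2Cre_H2Abf, 125, 233, 107 and 73.3 in WT, and 187, 106 and 56.6 in the libraries labelled CD4KO. It was 58.7, 89.5 and 109 CPM in CD8KO, 52.5, 108 and 58.2 in TCRKO and 43.5, 71.9 and 84.0 in Tie2Cre. Each neighbouring pair of backgrounds overlapped, and the means went from 157 ± 69.9 CPM (SD, n = 4) in Tie2Cre_H2Abf to 66.5 ± 20.8 (n = 3) in Tie2Cre. On the TPM level the order differed: CD8KO came first (279.7 ± 285), through CD8KO_9752 at 609 TPM, followed by CD4KO (213 ± 84.2) and Tie2Cre_H2Abf (174 ± 54.3). In CPM that library was at 89.5, and its TMM factor of 3.69, the largest, does not enter TPM.

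**Figure D2:**
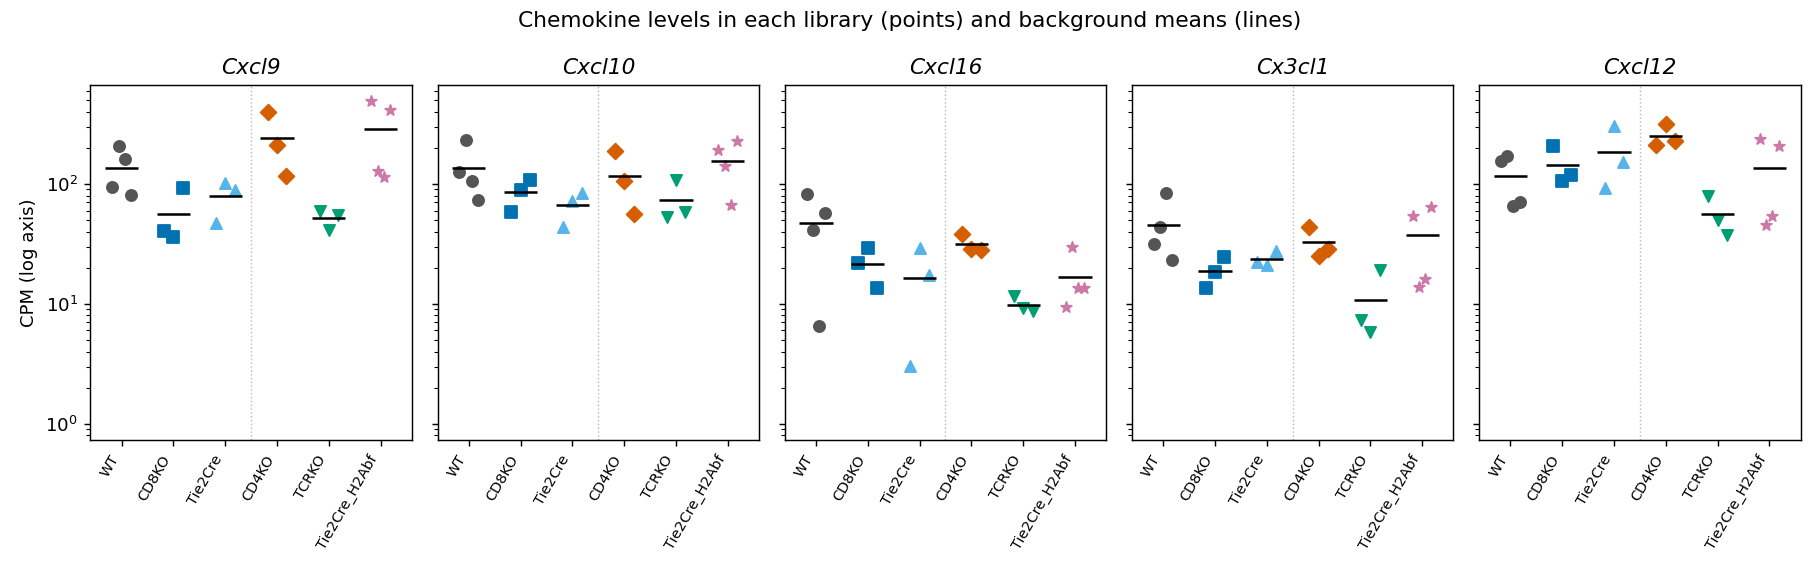
CPM level (log axis) of the 5 abundant chemokines in each library (points), by host background (x axis), with background means as lines and a dotted line between the CD4-competent backgrounds on the left and the deficient ones on the right. Cxcl9 in TCRKO (41.0 to 59.98 CPM) lies below every WT library, and Cxcl12 in CD4KO (209 to 314 CPM) above every WT library.

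The count ratio of both genes within a library does not depend on scaling factors. This ratio was chosen after its values were seen and is given as a description. In the libraries labelled CD4KO, Cxcl9 and Cxcl10 counts were 1824 and 854, 1640 and 831, and 1579 and 765, which is 2.14, 1.97 and 2.06 Cxcl9 counts per Cxcl10 count. Their 95% exact counting intervals together reach from 1.81 to 2.32. No WT library reached this ratio (0.760, 0.898, 1.52 and 1.10), nor did any Tie2Cre library (1.09, 1.42 and 1.07). The libraries labelled CD8KO had 0.695, 0.401 and 0.850 Cxcl9 counts per Cxcl10 count and TCRKO had 1.14, 0.380 and 0.945. Tie2Cre_H2Abf spread from 0.914 to 2.57. The ratio does depend on length. The deposited TPM values use each library's own effective lengths, and Cxcl9 was the longer gene in 19 of 20 libraries by very unequal amounts. On that scale, also examined after the data were seen, the libraries labelled CD4KO had 2.04, 0.869 and 0.613 Cxcl9 per Cxcl10, so they no longer lay together. WT had 0.218, 0.361, 0.554 and 0.375 on the TPM scale, and TCRKO, at 0.565, 0.207 and 0.859, overlapped CD4KO.

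**Figure D3:**
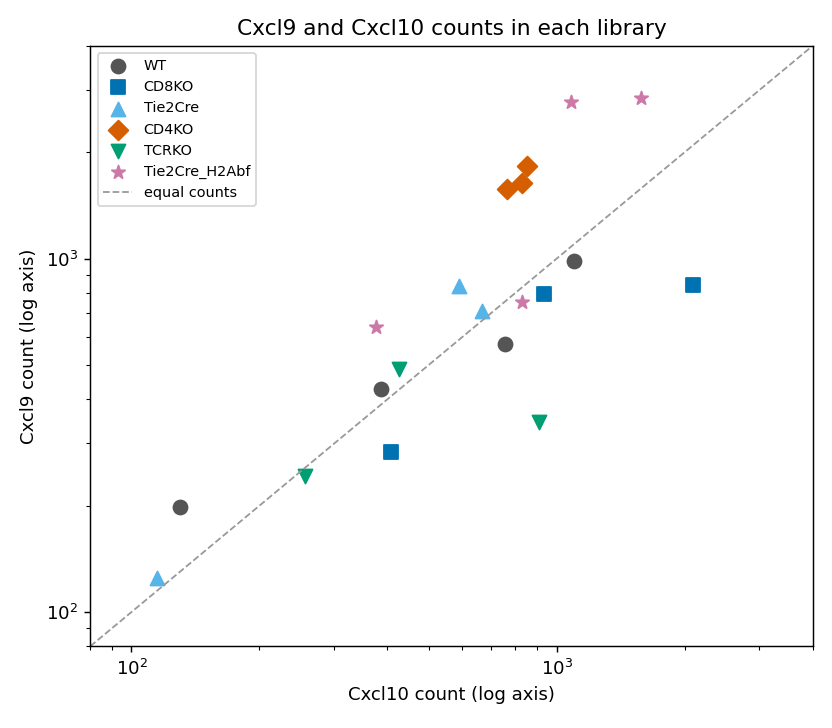
Cxcl9 count against Cxcl10 count in each library (log axes; points by background; the dashed line marks equal counts). The 3 libraries labelled CD4KO lie together above the line at ratios of 1.97 to 2.14, and the 3 labelled CD8KO lie below it at 0.401 to 0.850.

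Cxcl11, the remaining CXCR3 ligand, was scarce. It had 88 counts in all in Tie2Cre_H2Abf, 95 in CD4KO, 61 in WT, 108 in CD8KO, 24 in Tie2Cre and 19 in TCRKO. Of the 19 TCRKO counts 17 came from TCRKO_9765, and the other libraries had 1 each. Per effective library size, TCRKO held 0.257 times the Cxcl11 counts of WT (95% exact interval 0.145 to 0.436, counting error only), or 0.0441 (0.00523 to 0.166) without TCRKO_9765.

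The membrane-anchored chemokines both had their lowest means in TCRKO, in CPM and in TPM. Cxcl16 was at 83.1, 41.2, 6.57 and 56.8 CPM in WT, so that WT_9771 stood far below the other WT libraries. The WT_9771 value rests on 8 counts, in the library with the smallest effective size (1218559). Cxcl16 was at 38.2, 28.4 and 28.1 CPM in the libraries labelled CD4KO and at 11.6, 9.27 and 8.64 in TCRKO. In CD8KO the Cxcl16 level was 22.1, 29.2 and 13.5 CPM, in Tie2Cre 3.02, 29.1 and 17.4, and in Tie2Cre_H2Abf 9.38, 30.0, 13.5 and 13.6. The lowest of these, 3.02 CPM in Tie2Cre_9501, also rests on 8 counts. TCRKO lay below every CD4KO and CD8KO library and overlapped WT only through WT_9771. The Cxcl16 level ranked with the summed macrophage markers over the 20 libraries (Spearman's rho 0.606, given without a test), which share depth and scaling factors. The corresponding rho was -0.04 for Cxcl9, 0.01 for Cxcl10, -0.16 for Cx3cl1 and 0.00 for Cxcl12. Macrophage markers were not alone: for Cxcl16 rho was -0.55 with fibroblast, -0.53 with platelet and megakaryocyte and 0.38 with endothelial sums. For Cxcl12 it was -0.55 with epithelial or tumour cell sums and 0.44 with endothelial sums. The cell source of these chemokines was not tested.

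Cx3cl1 was at 31.3, 43.8, 84.5 and 23.1 CPM in WT, 54.2, 13.9, 16.2 and 64.6 in Tie2Cre_H2Abf and 43.9, 25.2 and 28.6 in CD4KO. It was at 22.3, 21.1 and 27.7 CPM in Tie2Cre, 13.6, 18.3 and 24.4 in CD8KO and 7.27, 5.82 and 19.1 in TCRKO. The 3 TCRKO libraries were below every WT and CD4KO library, and the library TCRKO_9767 overlapped CD8KO. In CPM, the 3 highest Cxcl16 levels were in WT libraries, and Cx3cl1 was highest in WT_9771, where Cxcl16 had its second lowest level of all 20. In TPM, CD8KO_9752 had the highest level of both (90.7 for Cxcl16 and 31.0 for Cx3cl1), and the highest means were in CD8KO for Cxcl16 (38.3) and in CD4KO for Cx3cl1 (17.0). In CPM that library was at 29.2 for Cxcl16 and 18.3 for Cx3cl1. CT010467.1 took 9.89% of its counts, the smallest share, and its TMM factor of 3.69 does not enter TPM. The CD8KO place in TPM therefore cannot be read as a higher Cxcl16 level.

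Cxcl12 was highest in the libraries labelled CD4KO, at 209, 314 and 230.1 CPM, and lowest in TCRKO, at 79.2, 50.01 and 37.7. WT had 156, 172, 64.8 and 71.0 CPM of Cxcl12 and Tie2Cre 93.0, 304 and 153. CD8KO had 206, 106 and 119.5 CPM, and Tie2Cre_H2Abf had a high pair (237 and 208) and a low pair (45.6 and 54.1). Every CD4KO library lay above every WT and TCRKO library, in CPM and in TPM.

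Set against WT, TCRKO gave 0 of 8 chemokines past the edgeR threshold, where 0.0269% of all genes passed (4 genes), and the smallest adjusted p was 0.375 for Cx3cl1. Fitted log2 changes were -1.40 ± 0.54 (SE) for Cxcl9, -0.88 ± 0.48 for Cxcl10, -2.26 ± 0.70 for Cxcl16, -2.09 ± 0.61 for Cx3cl1 and -1.06 ± 0.54 for Cxcl12. At an unadjusted p under 0.05, 4 of the 8 were lower (Cxcl9, Cxcl16, Cx3cl1 and Cxcl1), and 4.66% of all genes were. The median over the 8 was -1.74, beside -0.20 over all genes tested, and 7 of 8 were lower, beside 56.6% of all genes. In CPM, Cxcl9, Cx3cl1 and Cxcl1 lay below WT without overlap, and 2.1% of all genes did so. For Cxcl1 that rests on at most 1 count in TCRKO against 2 in the lowest WT library. In TPM, Cxcl9 overlapped, at 26.8 to 70.2 in TCRKO and 28.3 to 75.3 in WT. Per Pecam1 count both Cxcl9 (0.0542 to 0.103 against 0.067 to 0.374) and Cx3cl1 (0.0077 to 0.0357 against 0.0191 to 0.194) overlapped. With only the WT libraries nearest in library number (WT_9771 and WT_9772) the changes were -0.25 for Cxcl10 and -0.25 for Cxcl12. For Cxcl9, Cxcl16 and Cx3cl1 they were -1.17, -1.71 and -2.26. DESeq2 called 2 of the 8, Cxcl16 (adjusted p = 0.0266) and Cx3cl1 (adjusted p = 0.0286), and 172 genes in all. edgeR called Cxcl16 (-2.55, adjusted p = 0.0439) once WT_9771 and Tie2Cre_9501 were left out together, a choice made after the data were seen. In this comparison 10 of 12 macrophage markers were lower (median -0.40), with sums of 293 to 726 CPM in TCRKO and 269 to 776 in WT. Of the 12 endothelial markers 9 were lower (median -0.35), with sums of 2841 to 4024 and 2665 to 6643 CPM. Mural cell markers were lower for 6 of 8 (median -1.23), with sums of 31.1 to 38.3 against 32.2 to 61.4 CPM. Fibroblast markers were higher for 6 of 9 (median 1.16) with 1 called (Col6a2, named after its values were seen), at 29.9 to 43.0 against 0.425 to 35.3 CPM. The part of any of these lists in the chemokine values was not tested.

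TCRKO and CD4KO hosts are both classed as deficient, and 7 of the 8 tested chemokines had lower values in TCRKO, beside 51% of all genes. Fitted log2 changes of TCRKO against CD4KO were -2.22 ± 0.58 (SE) for Cxcl9, -2.17 ± 0.59 for Cxcl12, -1.68 ± 0.71 for Cxcl16, -1.61 ± 0.63 for Cx3cl1 and -0.67 ± 0.51 for Cxcl10. With edgeR 0 of 8 passed (0.0134% of all genes did), the smallest adjusted p being 0.368 for Cxcl9. At an unadjusted p under 0.05, 5 of 8 were lower, against 3.95% of all genes. The CPM ranges of 5 (Cxcl9, Cxcl11, Cxcl16, Cx3cl1 and Cxcl12) lay wholly below CD4KO, against 5.61% of all genes. Per Pecam1 count, Cxcl9 (0.0542 to 0.103 against 0.0909 to 0.653) and Cx3cl1 (0.0077 to 0.0357 against 0.0222 to 0.0719) overlapped, and Cxcl16 and Cxcl12 did not. DESeq2 called Cxcl9 (adjusted p = 0.0181) and Cxcl12 (adjusted p = 0.0109), with 102 genes in all. The median over the 8 was -1.84, beside -0.03 over all genes. These 2 comparisons share the TCRKO libraries. Of the endothelial markers 11 of 12 were lower in TCRKO (median -0.46), with sums of 2841 to 4024 CPM against 3461 to 6322, and of the macrophage markers 8 of 12 (median -0.40), with sums of 293 to 726 CPM against 470 to 634. Their part was not tested.

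In CD4KO against WT the chemokines lay on both sides of 0. Fitted log2 changes were 1.11 ± 0.52 (SE) for Cxcl12 (unadjusted p = 0.0436, adjusted p = 0.574) and 0.82 ± 0.51 for Cxcl9, and those of Cxcl10, Cxcl16 and Cx3cl1 lay between -0.58 and -0.21. With edgeR 0 of 8 passed, and 0% of all genes did. DESeq2 called 0 of the 8 and 89 genes. Cxcl12 was also the only one of the 8 with an unadjusted p under 0.05, where 4.03% of all genes were higher by that measure. Cxcl12 was the 1 gene of the 8 whose CD4KO libraries all lay above WT, as did 2.73% of all genes tested. With only the WT libraries nearest in library number (WT_9771 and WT_9772) its change was 1.92. These had the lowest Cxcl12 levels of the WT libraries (64.8 and 71.0 CPM), and WT_9771 held only 79 Cxcl12 counts. Fibroblast markers were higher for 7 of 9 in this comparison (median 1.48, 3 with an unadjusted p under 0.05). Their sums were 15.4 to 56.3 CPM in CD4KO and 0.425 to 35.3 in WT. This was not particular to CD4KO, since their median change against WT was 1.99 in CD8KO, 1.57 in Tie2Cre and 1.16 in TCRKO. Each listed fibroblast marker had 3 counts or fewer in 2 to 19 of the 20 libraries. The part of these markers in the Cxcl12 value was not tested.

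The libraries labelled CD8KO against WT gave log2 changes of -1.28 ± 0.53 (SE) for Cxcl9 and -1.27 ± 0.59 for Cx3cl1, the 2 genes with an unadjusted p under 0.05 (7.97% of all genes were lower by that measure). Cxcl16 was at -1.13 ± 0.66, Cxcl10 at -0.65 ± 0.48 and Cxcl12 at 0.31 ± 0.53. With edgeR 0 of 8 passed (0% of all genes), DESeq2 called 0 of the 8 and 82 genes, and no chemokine range was separate from WT (1.47% of all genes lay wholly below and 3.69% wholly above). Of the 8, 7 had lower values, beside 56.1% of all genes. All 12 macrophage markers were lower in this comparison (median -0.63), with sums of 226 to 372 CPM against 269 to 776. The part of that in the Cxcl16 value was not tested.

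Tie2Cre against WT compares 2 CD4-competent backgrounds. Log2 changes were -1.02 ± 0.48 (SE) for Cxcl10, -1.50 ± 0.67 for Cxcl16, -0.93 ± 0.58 for Cx3cl1, -0.78 ± 0.53 for Cxcl9 and 0.66 ± 0.52 for Cxcl12. With edgeR 0 of 8 passed (0% of all genes), 2 had an unadjusted p under 0.05 (Cxcl10 and Cxcl16, both lower, beside 2.88% of all genes), and DESeq2 called 0 of the 8 and 80 genes. Of the 8, 6 had lower values, beside 49.1% of all genes. Macrophage markers were lower for 11 of 12 (median -1.03), with sums of 195 to 315 CPM against 269 to 776.

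Loss of H2-Ab1 in the Tie2 lineage was compared with the Tie2Cre control. Log2 changes of Tie2Cre_H2Abf against Tie2Cre were 1.84 ± 0.55 (SE) for Cxcl9 and 1.23 ± 0.49 for Cxcl10, which is 3.58-fold and 2.35-fold, both with an unadjusted p under 0.05 and an adjusted p of 0.576. Cx3cl1 was at 0.65 ± 0.58, Cxcl12 at -0.43 ± 0.52 and Cxcl16 at -0.01 ± 0.65. With edgeR 0 of 8 passed, 0.0202% of all genes did (3 genes), and 2.69% of all genes were higher at an unadjusted p under 0.05. DESeq2 called 0 of the 8 and 53 genes. In CPM, Cxcl9 was the 1 gene of the 8 whose 4 Tie2Cre_H2Abf libraries lay above all 3 Tie2Cre libraries, as 5.28% of all genes did. Per Pecam1 count Cxcl9 overlapped, at 0.1003 to 0.4696 in Tie2Cre_H2Abf against 0.0661 to 0.102 in Tie2Cre. Endothelial markers were higher for 11 of 12 (median 0.41), with sums of 5524 to 8150 CPM against 3585 to 6758, and their part was not tested.

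Pooled by CD4 status, 10 deficient against 10 competent libraries, Cxcl9 was 2.12-fold higher (log2 1.09 ± 0.41, SE, unadjusted p = 0.0129, adjusted p = 0.535). The other abundant genes had log2 changes of 0.27 ± 0.31 (Cxcl10), 0.02 ± 0.37 (Cxcl12), -0.14 ± 0.39 (Cx3cl1) and -0.67 ± 0.43 (Cxcl16). With edgeR 0 of 8 passed (0% of all genes), and Cxcl9 was the only one with an unadjusted p under 0.05, beside 1.9% of all genes that were higher by that measure. DESeq2 called 0 of the 8 and 4 genes. The pooled Cxcl9 value joins unlike backgrounds, with TCRKO at a mean of 52.0 CPM and Tie2Cre_H2Abf at 286. Tie2Cre and Tie2Cre_H2Abf libraries carry library numbers in a lower series than the other 4 backgrounds. Within those 4 backgrounds alone the Cxcl9 log2 change was 0.52 (adjusted p = 0.999), and for Cxcl10 it was -0.26.

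**Figure D4:**
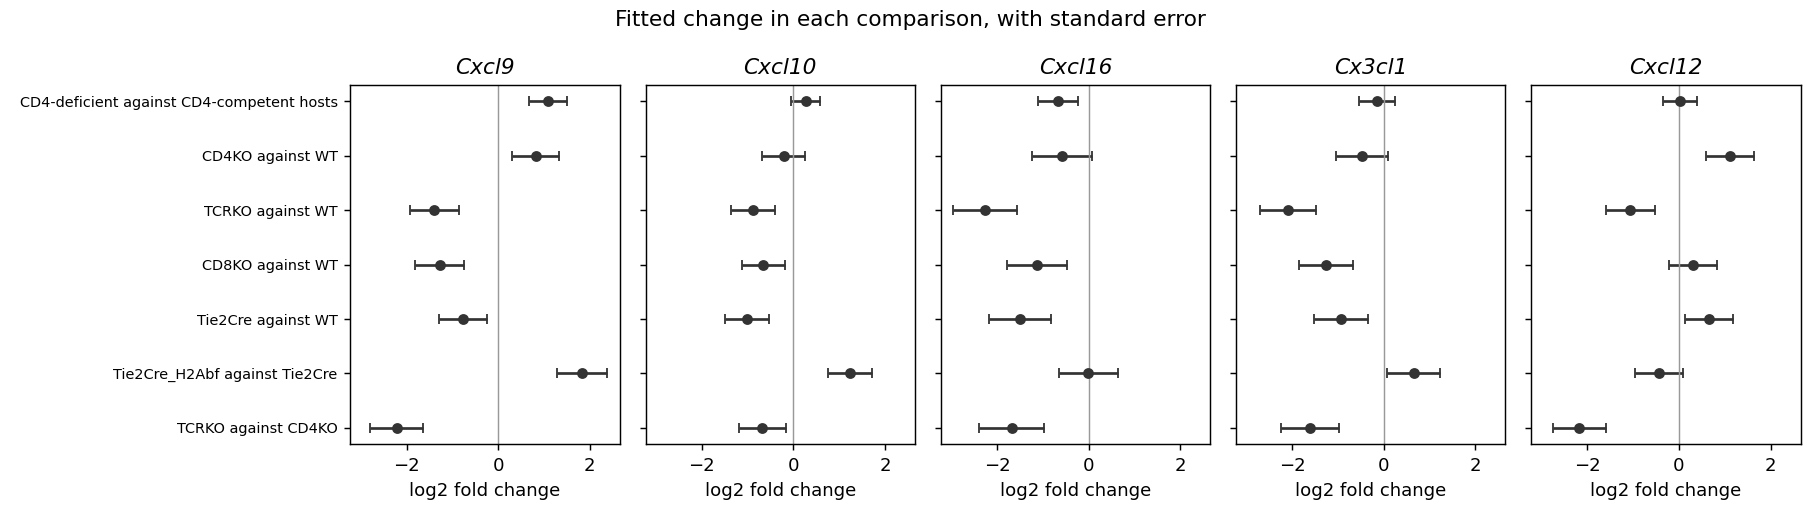
Fitted log2 fold change (x axis) of the 5 abundant chemokines in 7 comparisons (rows), with standard errors as bars. The changes of TCRKO against WT and against CD4KO are below 0 for all 5 genes, and Cxcl9 is at 1.84 in Tie2Cre_H2Abf against Tie2Cre.

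The remaining scarce chemokines are described by their counts, and the ratios without 1 library were added after the data were seen. Ccl5 had 19, 8 and 8 counts in the libraries labelled CD4KO, 8, 5 and 6 in TCRKO and 3, 7 and 4 in CD8KO. It had 4, 5, 3 and 0 in Tie2Cre_H2Abf, 0, 4 and 0 in Tie2Cre and 1, 1, 0 and 0 in WT. The ratio of CD4KO to WT Ccl5 counts per effective library size was 11.7 with an exact interval of 2.99 to 99.99, which covers counting error only, and 6.47 (1.52 to 58.0) without CD4KO_9768. For Ccl2 the TCRKO counts were 18, 71 and 18 and the WT counts 10, 20, 0 and 8, a ratio of 2.32 (1.59 to 3.45), or 1.31 (0.804 to 2.12) without TCRKO_9766, and CD4KO had 35, 23 and 19. Ccl2 was the only one of the 8 tested genes with a higher value in TCRKO than in WT. Cxcl1 had 29, 4, 3 and 2 counts in WT, 28, 2 and 0 in CD4KO and 0, 1 and 0 in TCRKO. The ratio of TCRKO to WT was 0.0217 (0.000535 to 0.128), and WT_9748 alone supplied 29 of the 38 WT counts. Without it the ratio was 0.0595 (0.00136 to 0.429).

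Receptors of these ligands were given by a list of 23 chemokine receptors, of which 15 were tested and 0 passed in any comparison. Cxcr3 was at 0 in 16 of 20 libraries (46 counts in all), Cxcr6 at 0 in 12 (45 counts) and Cxcr2 at 0 in 12 (20 counts). The CXCL12 receptor Cxcr4 was abundant, with a median of 136 CPM, and its background means ran opposite to those of Cxcl12 at both ends. They were 268 CPM in TCRKO and 52.9 in CD4KO, with a log2 change of 2.34 ± 0.71 (SE, adjusted p = 0.582) between the 2. The CXCL12 scavenger Ackr3 had log2 1.47 ± 0.58 in the same comparison (adjusted p = 0.749). Ackr1, a venular receptor that binds many chemokines, had a mean of 7.32 CPM in TCRKO, 29.5 in WT and 43.6 in CD4KO, with a log2 change of TCRKO against WT of -2.02 ± 0.63 (adjusted p = 0.406). Ccr2 had a median of 1.82 CPM and Cx3cr1 of 4.11 CPM, and against WT their TCRKO log2 changes were -2.63 ± 1.23 and 0.44 ± 1.24.

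Of 15 interferon-gamma signalling genes listed 13 were tested. Ifng itself had 0 counts in all 20 libraries, which allows up to 0.128 to 2.46 CPM depending on depth. In TCRKO against WT 12 of the 13 were lower (median -0.97), beside 56.6% of all genes (median -0.20), and 0 passed. Gbp2 was at -1.94 ± 0.40 (SE, adjusted p = 0.104), Wars at -1.76 ± 0.46, Gbp4 at -1.37 ± 0.40 and Gbp5 at -1.23 ± 0.48. In CD4-competent CD8KO against WT 9 of the 13 were lower (median -0.29), beside 56.1% of all genes (median -0.18), and 0 passed. There Gbp5 was at -1.53 ± 0.49, Gbp4 at -1.09 ± 0.39, Wars at -0.98 ± 0.44 and Gbp2 at -0.95 ± 0.39. In Tie2Cre_H2Abf against Tie2Cre 2 of the 13 were lower, beside 58.2% of all genes, and 11 were higher (median 0.53, beside -0.24 over all genes), and 0 passed, with Wars at 1.59 ± 0.45 and Gbp2 at 1.14 ± 0.39. Across the 6 backgrounds 1 of the 13 passed, the guanylate-binding protein gene Gbp2 (adjusted p = 0.0477), beside 0.0605% of all genes. Over the 20 libraries Cxcl9 ranked most like Gbp4 (Spearman's rho 0.94), then Ubd (0.89) and Tgtp2 (0.87), among 4201 genes with a mean of at least 10 CPM, for which the median rho was 0.04. Its rho was 0.74 with Cx3cl1, 0.63 with Cxcl10, 0.48 with Cxcl12 and 0.18 with Cxcl16.

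Cx3cl1 ranked most like Iigp1 (0.80), Gbp4 (0.75) and Ubd (0.74), so that Gbp4 and Ubd were among the nearest 3 genes of both. Cxcl10 was nearest to Bag3 (0.79), Il2rg (0.74) and Cfb (0.70). Cxcl16 was nearest to Crebbp (0.84), Ifngr1 (0.82) and Ubr1 (0.77), and Cxcl12 to Tnfsf10 (0.79), Slco3a1 (0.79) and Acacb (0.78). These correlations are descriptions over libraries that share depth and scaling, and carry no test.

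The other lists held no gene past the threshold in any comparison, and their shares of lower genes in TCRKO against WT were near the 56.6% of all genes. Among 16 tested genes of TNF, IL-1 and NF-kappaB signalling 10 were lower in TCRKO against WT (median -0.47), with the adhesion molecule Vcam1 at -1.95 ± 0.54 (SE, adjusted p = 0.307) and Il1r1 at -2.34 ± 0.74. Sele (E-selectin), which had the smallest p of this list (edgeR adjusted p = 0.223), had 1 count in TCRKO and 204 in WT. The ratio was 0.00404 (exact interval 0.000102 to 0.0228, counting error only). Its level in WT was 9.80 ± 8.43 CPM (SD), so the WT libraries were unequal. Of 13 tested other chemokine ligands 8 were lower (median -0.51) and none of them, Ccl6, Ccl7 and Ccl21a included, had an unadjusted p under 0.05. Of 14 tested genes for shedding, trimming and presentation of chemokines 9 were lower (median -0.15). Gpc1, a glypican with the smallest p of these, had 191 counts in TCRKO and 0 in WT. Its level in TCRKO was 8.34 ± 9.64 CPM (SD) with a maximum of 19.2, so these libraries were very unequal. Among the 14 genes Adam17, a sheddase of fractalkine, was at -1.28 ± 0.67 and the heparan sulfate carrier Sdc1 at 3.50 ± 1.11 (adjusted p = 0.414).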

How the data were processed

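CD31-positive cells were sorted into TRIzol LS, RNA was amplified with MATQ, and Nextera XT libraries, which do not mark strand, were made, per the labels' protocols. The submitters' processing notes name bcl2fastq 2.17, STAR, RSEM 1.2.28, DESeq2 and GRCm38. The authors deposited for each library RSEM expected counts, TPM, and further quantities such as effective lengths, per the file headers. Of the expected counts 4.45% were not whole, and all were rounded. A GRCm38 annotation gave symbols for 46488 of 46983 genes. RSEM divides reads between near-identical genes.

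Expected counts were tested with edgeR 4.0.16 (R 4.3.3), using quasi-likelihood, robust estimation, TMM factors (0.523 to 3.69) and filterByExpr, which kept 14875 genes. A 6-group model served all comparisons but CD4 status, which had a 2-group model. P-values were adjusted by Benjamini-Hochberg across all tested genes (threshold 0.05), and "passed" and "called" refer to this threshold. The biological coefficient of variation was 0.995 and 1.08. CPM uses effective library sizes, and TPM compares genes within a library. A count of 3, taken as the floor, equals 0.128 to 2.46 CPM. Intervals are exact at 95% and cover counting error only. The script was tested on simulated data.

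The 9 genes, the gene lists and the tests were chosen with earlier results of these data known. Named genes are the 9, the receptors of these ligands, up to 4 genes per list with the smallest p (mean at least 1 CPM), of which a part is printed, and the 3 nearest genes by Spearman's rho of each chemokine with a mean of at least 10 CPM. Fitted changes are given for those 5 only. Not every gene under this rule is reported here. Alternatives were DESeq2 1.42.0, limma-voom (limma 3.58.1) with sample weights, RLE factors, no filter or at least 5 CPM in 10 libraries, only the groups compared, subsets by library number, and each library left out. Leaving out WT_9771 with Tie2Cre_9501, and keeping protein-coding genes only, were added after seeing the data.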

Additional observations from a re-analysis of the deposited data

Results flagged for a closer look

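For each of the 9 genes, the 4 WT, the 4 Tie2Cre_H2Abf, the 10 competent and the 10 deficient libraries were checked, 36 groups in all. In 6 of them 1 library stood apart from the nearest of the others by more than Dixon's 95% limit. That limit flags about 1 in 20 groups only if values are normally spread and groups are independent. Here the pooled groups join unlike backgrounds and hold the WT or Tie2Cre_H2Abf libraries again. All 6 flags were in pooled groups, so their number cannot be set against that rate. Cxcl10 was at 233 CPM in WT_9749, and the next of the 10 CD4-competent libraries was at 125. Cxcl11 was at 12.3 CPM in WT_9771, from 15 counts, with the next competent library at 4.67. Cx3cl1 was at 84.5 CPM in WT_9771, and the next was at 43.8. Cxcl1 was at 4.801 CPM in WT_9748 (29 counts), with the next at 2.46. In CD4KO_9768, Cxcl1 was at 6.11 CPM (28 counts) with the next of the 10 deficient libraries at 0.354, and Ccl5 was at 4.15 CPM (19 counts) with the next at 1.36.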

How the results depend on the processing

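No paired analysis was possible because each library number is used once and the backgrounds share no numbers. The count of chemokines called was 0 in the main edgeR setting in all 8 comparisons. It was 1 across the 6 backgrounds with DESeq2 and 1 with no filter on low counts, and 0 to 1 when 1 library was left out. It was 2 in TCRKO against WT and 2 in TCRKO against CD4KO with DESeq2, and 1 in TCRKO against WT without WT_9771 and Tie2Cre_9501. The count in the other comparisons was 0 under every alternative run. The cause was not tested. Counts of genes called moved more: 9 across the 6 backgrounds became 261 with DESeq2 and 672 with no filter (1 to 18 leaving 1 library out), and 4 in TCRKO against WT became 172 with DESeq2 and 0 with only the groups compared (0 to 18 leaving 1 out).

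None of the 5 abundant chemokines passed in the main edgeR setting, so any change of sign had to be in a value that did not pass there. Cxcl12 by CD4 status (0.02) was -0.0275 with DESeq2, -0.54 with limma-voom, -0.0278 with RLE factors, -0.0379 with at least 5 CPM in 10 libraries, -0.14 without WT_9771 and Tie2Cre_9501 and -0.00076 with protein-coding genes only. Leaving 1 library out gave -0.17 to 0.22. Cx3cl1 by CD4 status (-0.14) was 0.0693 with limma-voom, 0.016 with no filter and 0.14 without those 2 libraries, and -0.37 to 0.15 leaving 1 out. Cxcl10 by CD4 status (0.27) was -0.26 without the Tie2Cre and Tie2Cre_H2Abf backgrounds. In CD4KO against WT, Cxcl10 (-0.21) was 0.42 with the nearest WT library numbers and -0.70 to 0.19 leaving 1 out, and Cx3cl1 (-0.48) was 0.0361 without WT_9771 and Tie2Cre_9501. Cxcl12 in CD8KO against WT (0.31) was -0.17 with the nearest WT numbers and -0.0267 to 0.56 leaving 1 out. In Tie2Cre_H2Abf against Tie2Cre, leaving 1 out gave -0.49 to 0.68 for Cxcl16 and -0.84 to 0.17 for Cxcl12. All other directions of the 5 abundant chemokines were kept. At this depth the scarce chemokines rest on a few counts per library, and a difference in Ccl5 or Cxcl1 smaller than their intervals was not detectable.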
